A study of Mus musculus with 2 samples.

Results

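Ddx4 (ENSMUSG00000021758) was followed as a single gene, 1 of the 32285 genes in the deposited count tables of a single-cell RNA study of mouse testis. It was chosen by its symbol, because the Cre recombinase of the study is named after its promoter. The study asked how loss of the histone H3 lysine 79 methyltransferase DOT1L changes male germ cells as they mature into sperm. Whole testes were dissociated to single cells and 3′ ends of transcripts were counted as UMIs (unique molecular identifiers, each standing for 1 captured transcript) with 1 library per genotype. The control library came from Dot1L fl/+ mice without Cre. The conditional knockout (cKO) library came from Dot1L fl/delta mice with Ddx4-Cre. The cKO genotype thus differs from the control by the Cre and also by 1 delta allele, which its label gives for the animal and not for germ cells alone. The labels do not say whether the Cre is a transgene or sits in the Ddx4 locus, which exons of Dot1l are floxed, how many animals went into a library, or their age and strain. With 1 library per genotype genotype and library cannot be told apart, no difference has a replicate check, and each 95% interval covers counting error only.

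Ddx4, also called Vasa, encodes a DEAD-box RNA helicase of germ cells. The protein gathers in germ granules (the intermitochondrial cement of spermatocytes and the chromatoid body of round spermatids), where it works with PIWI and Tudor proteins in making piRNAs that silence transposons. Because Ddx4 is germ cell specific in the testis, Cre driven by its promoter is widely used to delete floxed genes in the male germ line.

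Ddx4 lies on the minus strand of mm10 at chr13:112598333-112652475 and spans 54143 bases. The annotation gives it 2 coding transcripts, whose 3′ ends lie 2 bases apart and whose starts lie 174 bases apart, so that the 3′ counts do not tell the transcripts apart. None of the 361 words of 40 nucleotides in the last 400 nucleotides of its longer transcript (0 of 361) was found in a transcript of another gene, and no annotated gene overlaps it. The promoter is shown because it is the element after which the Cre driver is named. The RefSeq sequence (GRCm38.p6, chr13:112652261-112652560, minus strand, from 250 bases before to 50 bases after the RefSeq start site) is written 5′ to 3′, with capitals marking the matches, on either strand, to the CCAAT box, the GC box and the E-box motifs spelled out after it.
Ddx4: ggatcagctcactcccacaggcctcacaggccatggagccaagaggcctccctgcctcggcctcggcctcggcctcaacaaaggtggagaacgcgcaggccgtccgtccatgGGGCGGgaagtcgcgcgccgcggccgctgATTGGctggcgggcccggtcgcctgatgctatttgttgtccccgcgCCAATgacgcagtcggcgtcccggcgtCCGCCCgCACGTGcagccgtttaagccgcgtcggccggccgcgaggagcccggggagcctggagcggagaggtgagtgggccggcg
The window was 72% G or C, against a median of 52.7% over the 32851 mouse promoters of the same length, and 93.1% of them had less. It held 38 CpG dinucleotides, against a median of 7, and 95.05% of promoters had fewer. The CCAAT box, with the reverse complement ATTGG, occurred at 2 places, 109 and 63 bases before the start site, and 37.4% of promoters held it. The GC box GGGCGG, whose reverse complement reads CCGCCC, also occurred at 2 places, 138 and 36 bases before the start, and 35.7% of promoters held it. The E-box CACGTG, which reads the same on both strands, occurred 29 bases before the start and in 7.15% of promoters. None of these matches overlapped another. The longer annotated transcript starts at 112652475, upstream of the RefSeq start site at 112652310. The matches therefore lie before the RefSeq start but within the span of that transcript. TATAAA, found in 13.6% of promoters, and TGACGTCA, found in 1.79%, were not among the letters of this window on either strand. The matches are a description of the sequence, and no measurement of binding was part of these data.

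The control library held 17408 barcodes and 155487418 UMIs and the cKO library 20601 barcodes and 156518838 UMIs, with medians of 2383.5 and 2188 UMIs per barcode. They shared 102 barcode sequences. After removal of barcodes rich in mitochondrial RNA and of scored doublets, 15399 control and 17816 cKO cells were clustered together without Ddx4 and Dot1l, and clusters were named from marker genes. Germ cells fell into 5 classes: spermatogonium-like (166 control and 349 cKO cells), early spermatocyte-like (680 and 1121), mid to late spermatocyte-like (1516 and 1633), round spermatid-like (1631 and 1441) and elongating spermatid-like (3375 and 3014). Named somatic cells were Sertoli-like (2158 and 3813), Leydig-like (144 and 453), macrophage-like (66 and 188) and mesenchymal-like (50 and 168). Another 4623 control and 4454 cKO cells were in clusters that stayed unnamed, and 990 and 1182 in clusters of low RNA content. Spermatids of the 2 libraries clustered apart: round spermatid-like cells were mainly clusters 7 and 24 in the control and 11 and 23 in the cKO library. Most elongating spermatid-like cells were in clusters 3 and 9 in the control and 6 and 10 in the cKO library.

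In the control library Ddx4 was highest in early spermatocyte-like cells and fell through the later classes to its lowest level in elongating spermatid-like cells. The level is given as CPM, counts per 1000000, the UMIs of the gene scaled by all UMIs of the class. Spermatogonium-like cells, the stem and dividing cells at the edge of the tubule, had 292 CPM (95% Poisson interval 267 to 318, 508 UMIs). Early spermatocyte-like cells, the class named from leptotene to zygotene markers, had 615 CPM (601 to 630, 6818 UMIs). Cluster 15, led by Tex101, an early to mid pachytene marker, held 5886 of these UMIs at 668 CPM. Cluster 19 of the same class was at 474 CPM. Cluster 22, with the meiotic entry gene Stra8 among its leading genes, was at 286 CPM, so the peak was not at meiotic entry. Mid to late spermatocyte-like cells had 416 CPM (410 to 422, 18654 UMIs). Round spermatid-like cells, the haploid cells with a chromatoid body, had 246 CPM (241 to 251, 9775 UMIs). Elongating spermatid-like cells had 14.1 CPM (12.8 to 15.4, 466 UMIs). These 5 intervals did not overlap, so the order of the pooled classes was early spermatocyte-like, mid to late spermatocyte-like, spermatogonium-like, round spermatid-like and elongating spermatid-like. Single clusters did not all follow it: round spermatid-like cluster 7 was at 301 CPM (295 to 308) and cluster 24 at 113 CPM.

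The cKO library had the same early peak at lower levels. Ddx4 was at 142 CPM (129 to 157, 410 UMIs) in spermatogonium-like cells and at 366 CPM (356 to 376, 5471 UMIs) in early spermatocyte-like cells. It was at 259 CPM (254 to 263, 11183 UMIs) in mid to late spermatocyte-like cells and at 143 CPM (139 to 147, 4556 UMIs) in round spermatid-like cells. Elongating spermatid-like cells had 14.7 CPM (13.2 to 16.2, 371 UMIs). The order matched that of the control except that the intervals of spermatogonium-like and round spermatid-like cells overlapped, so these neighbours did not differ beyond counting error.

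**Figure D1:**
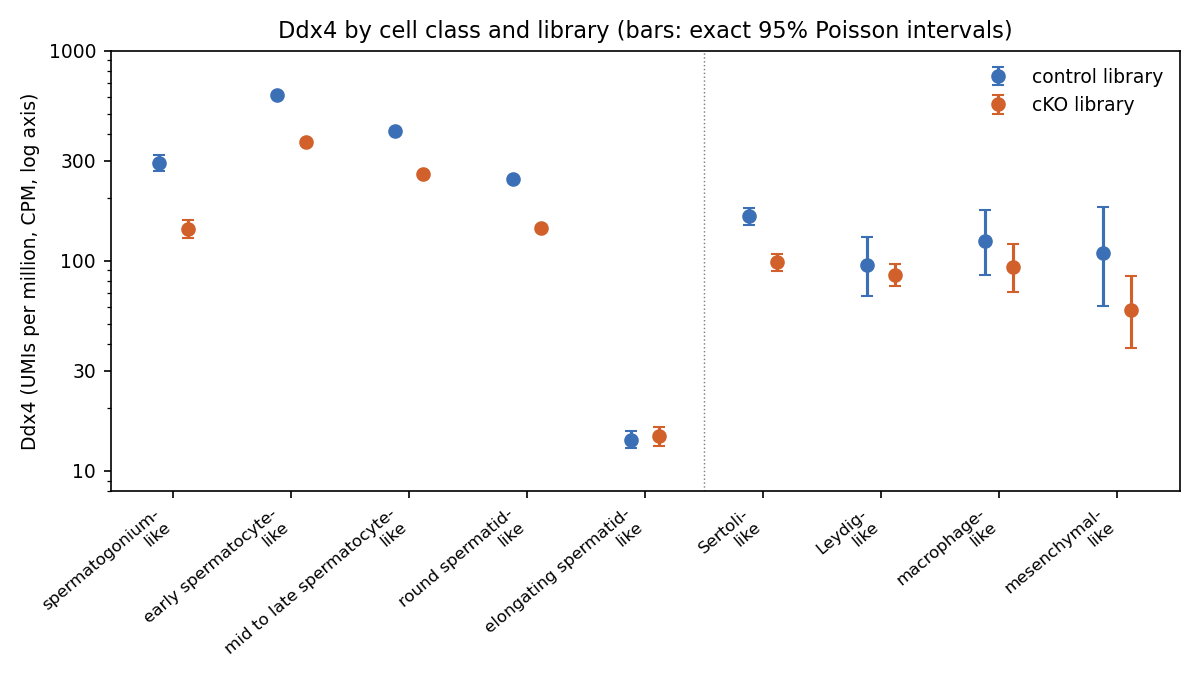
Ddx4 in CPM (log axis) in 5 germ cell classes, left of the dotted line, and 4 somatic classes, right of it, for the control (blue) and the cKO library (orange), with 95% Poisson intervals as bars. The control point is higher in all classes except the elongating spermatid-like one, where it is 14.1 against 14.7 CPM.

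Somatic barcodes also carried Ddx4 UMIs, although somatic testis cells should lack the gene. Sertoli-like cells, the nurse cells of the tubule, had 163 CPM (148 to 179) in control barcodes and 98.5 CPM (89.9 to 108) in cKO barcodes. Macrophage-like cells had 124 and 93.4 CPM, mesenchymal-like cells 109 and 58.3 CPM, and the steroid-making Leydig-like cells 95.5 and 85.8 CPM. Each of these 3 smaller classes held 40 or fewer Ddx4 UMIs in the control library, and in each library its interval overlapped that of its neighbour in the order. RNA of late spermatids (Tnp1, Tnp2, Prm1, Prm2, Oaz3, Gapdhs, Odf1 and Smcp, 8 of 8 detected) was in the same barcodes: they summed to 8.84% of control and 4.74% of cKO Sertoli-like UMIs. Each gene's share there was divided by its share of the library, and the median over the 8 genes was 1.12 and 1.04. If all of this RNA were free RNA of the library's own composition, that median would bring 302 CPM of Ddx4 into the control Sertoli-like barcodes. It would bring 180 CPM into the cKO ones, in both cases more than was measured. The Ddx4 level of elongating spermatid-like cells lay below that of the pooled somatic classes (149 CPM, control, and 91.8 CPM, cKO). The somatic barcodes were shallower, with medians of 885 and 1017 UMIs against 7937 and 6327.5. Whether the low level in elongating spermatid-like cells is background was therefore not tested by this comparison.

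In the other germ cell classes the same estimate of free RNA was a small part of the Ddx4 level. It came to 41.1 of 292 CPM in control and 29.0 of 142 CPM in cKO spermatogonium-like cells. In early spermatocyte-like cells it came to 18.9 of 615 and 11.9 of 366 CPM. In mid to late spermatocyte-like cells it came to 16.6 of 416 and 9.97 of 259 CPM. Round spermatids make the late genes themselves, so no such estimate was made for them.

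Ddx4 was read in most single cells of the 4 classes before the elongating one. In spermatogonium-like cells 90.4% of control and 60.2% of cKO cells had a Ddx4 UMI. In early spermatocyte-like cells the shares were 89.9% and 77.0%, in mid to late spermatocyte-like cells 94.1% and 88.4%, and in round spermatid-like cells 93.7% and 83.9%. The medians were 2 and 1, 5 and 2, 10 and 5, and 5 and 3 UMIs of Ddx4 per cell in the same order. Elongating spermatid-like cells had a Ddx4 UMI in 12.5% and 10.98% of cells at median depths of 7937 and 6327.5 UMIs. Pooled somatic cells had one in 15.5% and 11.1% at medians of only 885 and 1017 UMIs.

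With each cell thinned to 2000 UMIs, the shares at equal depth were 42.2% and 23.8% in spermatogonium-like cells and 60.6% and 43.3% in early spermatocyte-like cells. They were 54.5% and 37.4% in mid to late spermatocyte-like cells and 38.6% and 25.1% in round spermatid-like cells. The elongating class had 3.45% and 3.37%. Somatic cells deep enough to be thinned had 21.1% (246 cells, with 2172 too shallow) and 11.7% (667 cells, with 3955 too shallow). In the germ cell classes shallower cells numbered 0 to 155 per class (control) and 5 to 223 (cKO). At this depth 3.98% of control and 0.72% of cKO early spermatocyte-like cells had 4 or more Ddx4 UMIs, and 29.8% and 30.8% had 1. The cKO cells thus had more cells without a UMI and fewer with several.

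**Figure D2:**
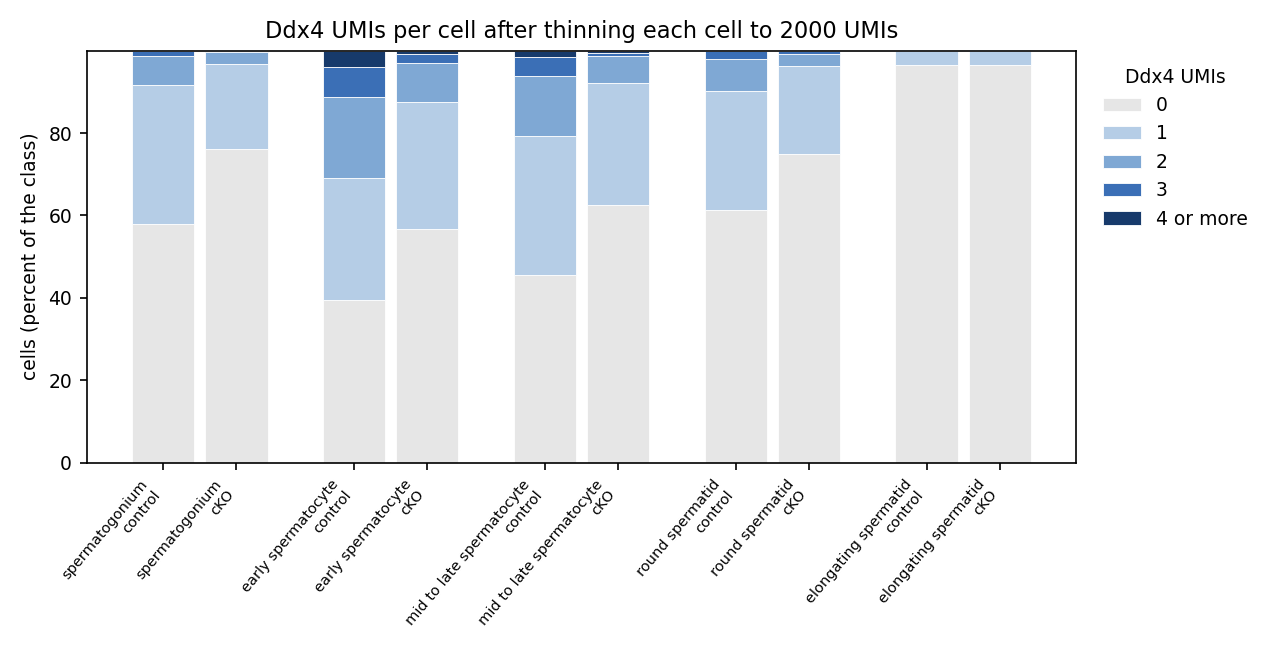
Percent of cells (vertical axis) with 0, 1, 2, 3 or 4 or more Ddx4 UMIs, in darker blue for more, in each germ cell class of each library after thinning every cell to 2000 UMIs. The grey part, cells with none, is larger in the cKO bar of the first 4 classes and about equal in the elongating class, at 96.6% in both libraries.

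Ddx4 was lower in the cKO library in each of the 4 classes before the elongating one, by a similar factor. In spermatogonium-like cells the cKO level was 48.8% of the control level, a log2 ratio of −1.03 (95% interval −1.23 to −0.84), where 5.24% of 9730 measured genes were over 1.5-fold lower. In early spermatocyte-like cells it was 59.5%, a log2 ratio of −0.75 (−0.80 to −0.70), where 2.81% of genes were over 1.5-fold lower. In mid to late spermatocyte-like cells it was 62.2%, a log2 ratio of −0.69 (−0.72 to −0.65), against 4.82% of genes. In round spermatid-like cells it was 58.1%, a log2 ratio of −0.78 (−0.84 to −0.73), against 6.77% of genes. The share of measured genes with a lower ratio than Ddx4 was 0.54%, 1.40%, 3.62% and 3.78% in these classes. The interval of early spermatocyte-like cells overlapped those of mid to late spermatocyte-like and of round spermatid-like cells. That of spermatogonium-like cells lay below the other 3, but with cells classed by their marker scores instead of by cluster its ratio was −0.61. With cells of over 5% mitochondrial UMIs left out before clustering, the cluster named spermatogonium-like was another one with only 13 control and 17 cKO Ddx4 UMIs, and its ratio was 0.14. Leaving out the same cells while keeping the classes gave −1.13.

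In elongating spermatid-like cells the log2 ratio of Ddx4 was 0.06 (−0.14 to 0.26), at levels of only 14.1 and 14.7 CPM. It was −0.30 once the median log2 ratio of all genes in that class, 0.36, was taken off. With cells classed by their marker scores it was −0.29 (−0.48 to −0.10), so its sign depended on the setting. Of all genes measured there, 4.88% were over 1.5-fold lower. In Sertoli-like cells the ratio was −0.73 (−0.92 to −0.53), where 4.64% of genes were over 1.5-fold lower. The pooled somatic classes had −0.70 (−0.86 to −0.54) and the unnamed clusters −0.70 (−0.82 to −0.59). The Leydig-like ratio of −0.16 had an interval from −0.64 to 0.36. Over all barcodes of the libraries, before any filter, Ddx4 had 42068 control and 27104 cKO UMIs, or 270.6 and 173.2 CPM.

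The difference was also present between cells of the same cluster, since the libraries shared clusters up to the late spermatocytes. The spermatogonium-like class was cluster 21 alone. In cluster 22, which had Sdk1, Pbx3 and the meiotic entry gene Stra8 among its leading genes, Ddx4 was at 286 and 188 CPM, a log2 ratio of −0.60 (−0.85 to −0.35). In cluster 19, led by Dazl, Rad51ap2 and Meiob, it was at 474 and 285 CPM, a ratio of −0.73 (−0.89 to −0.58). Cluster 15, led by Tex101, held the highest level of any cluster shared by the libraries, at 668 and 410 CPM and a ratio of −0.70 (−0.76 to −0.65). The mid to late spermatocyte-like class held 3 shared clusters, 13, 17 and 4, with 374 and 242, 482 and 322, and 440 and 266 CPM, with ratios of −0.63, −0.58 and −0.73. Over these 7 clusters the ratio thus ran from −0.58 to −1.03.

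Dot1l, the gene to be deleted, lies on the plus strand at chr10:80755206-80795461. Since the floxed part is not stated, its 3′ UMIs need not be lost where the deletion leaves the 3′ end in place, and its level is given as measured. Control Dot1l was at 56.2 CPM in spermatogonium-like and 59.1 CPM in early spermatocyte-like cells, rose to 109 CPM in the mid to late spermatocyte-like class, and was at 40.2 CPM in round spermatid-like and 2.33 CPM in elongating spermatid-like cells. The cKO levels were 32.6, 55.7, 45.8, 4.95 and 1.07 CPM. The log2 ratio was −0.79 (−1.21 to −0.36) in spermatogonium-like cells, on 98 and 94 UMIs. It was −0.09 (−0.24 to 0.06) in early spermatocyte-like cells, −1.25 (−1.33 to −1.18) in the mid to late spermatocyte-like class and −3.02 (−3.27 to −2.78) in round spermatid-like cells. The early spermatocyte-like value pools 3 clusters that differ: cluster 22 had a Dot1l ratio of −0.74 (−1.18 to −0.29), cluster 19 −0.31 (−0.71 to 0.09) and cluster 15 0.03. Cluster 15 held 481 of the 655 control Dot1l UMIs of the class. Dot1l was thus over 1.5-fold lower in clusters 21 and 22, near its control level in cluster 15, and lower from the mid to late spermatocyte-like class on. In clusters 22, 19, 15 and 13 the control level was 98.0, 65.5, 54.6 and 102 CPM. The cKO level there was 58.9, 52.9, 55.8 and 60.5 CPM, with overlapping intervals. The ratio near 0 in cluster 15 thus went with a low control level. In the cKO library Dot1l fell in clusters 17 and 4, to 37.0 and 16.5 CPM. In elongating spermatid-like cells its ratio was −1.13 (−1.82 to −0.48) on 77 and 27 UMIs. Somatic barcodes also had less Dot1l: it was at 35.1 and 10.5 CPM in Sertoli-like cells, a ratio of −1.74 (−2.27 to −1.23). The pooled somatic classes had −1.42, and the Leydig-like class −0.02 (−1.17 to 1.37). Free RNA by the estimate above would bring 60.5 and 24.9 CPM into Sertoli-like barcodes, so the level of Dot1l in Sertoli cells themselves cannot be read from them.

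Ddx4 was lower in the cKO library both in the cluster where Dot1l was near its control level and where Dot1l was lower. In cluster 15, where Ddx4 peaked and had a ratio of −0.70, Dot1l was at 54.6 and 55.8 CPM, a ratio of 0.03 (−0.14 to 0.21). In the next clusters, 13, 17 and 4, the Dot1l ratio was −0.75, −1.81 and −2.71, while the Ddx4 ratio stayed between −0.58 and −0.73. Over the 4 classes up to round spermatid-like cells the Ddx4 ratio spanned 0.35 log2 units and the Dot1l ratio 2.93. In the early spermatocyte-like class the size of the Dot1l ratio depended on the setting: it was −0.44 when genes were centred within each library before clustering and −0.34 as a mean over single cells.

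The timing of both genes was also read without clusters, from a stage index. For each germ cell the index is the mean stage number of 6 marker lists weighted by their levels in the cell, from 1 (spermatogonium) to 6 (elongating spermatid), and neither Ddx4 nor Dot1l is among those markers. From index 1.0 to 1.5, where 99.0% of cells were spermatogonium-like, Ddx4 was at 264 and 144 CPM, a log2 ratio of −0.87 (−1.15 to −0.60), and Dot1l had −0.85 (−1.46 to −0.25). From 1.5 to 2.0 Ddx4 had 289 and 150 CPM and a ratio of −0.94, and Dot1l −0.53. From 2.0 to 2.5 Ddx4 had 337 and 182 CPM and −0.89, and Dot1l −0.48.
Ddx4 peaked in both libraries from 2.5 to 3.0, at 555 and 342 CPM with a ratio of −0.70 (−0.75 to −0.64), where Dot1l had its smallest difference before the spermatids, −0.37 (−0.52 to −0.21). Dot1l then peaked in the control from 3.0 to 3.5, at 98.7 CPM beside 49.8 CPM (cKO), a ratio of −0.99 (−1.07 to −0.90). In that range Ddx4 was at 401 and 253 CPM, a ratio of −0.66 (−0.70 to −0.63). From 3.5 to 4.0 Dot1l was at 76.9 and 14.4 CPM, a ratio of −2.42, beside −0.74 for Ddx4.

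From 4.0 to 4.5, where most cells were round spermatid-like, Dot1l was at 38.8 and 4.67 CPM, its lowest ratio at −3.05 (−3.37 to −2.75), while Ddx4 was at 233 and 137 CPM, a ratio of −0.77 (−0.83 to −0.70). From 4.5 to 5.0 both genes had nearly gone: Ddx4 was at 63.7 and 31.9 CPM, a ratio of −0.997 (−1.18 to −0.82), and Dot1l at 6.87 and 2.35 CPM. Beyond 5.0 Ddx4 was at 13.9 to 16.3 CPM in both libraries and its ratio, −0.10 and then 0.02, had intervals that included 0. By this index the control level of Ddx4 thus peaked 1 range before that of Dot1l. Both genes differed between the libraries from the first range. In the cKO library Dot1l rose from 32.7 CPM in the first range to 49.8 CPM from 3.0 to 3.5. It then fell to 14.4 CPM from 3.5 to 4.0, after the range in which Ddx4 peaked.

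**Figure D3:**
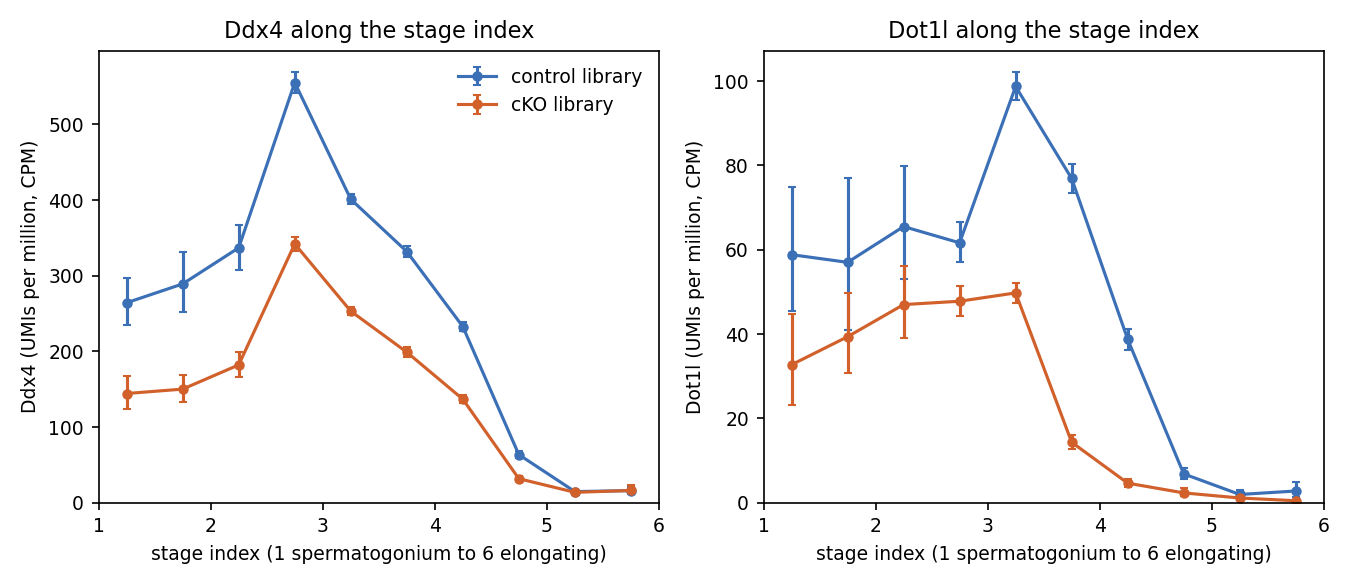
Ddx4 (left) and Dot1l (right) in CPM against the stage index, in ranges of width 0.5, for the control (blue) and the cKO library (orange), with 95% Poisson intervals as bars. The cKO curve of Ddx4 keeps the shape of the control curve below it up to index 5, while that of Dot1l leaves its control curve most strongly after index 3.

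**Figure D4:**
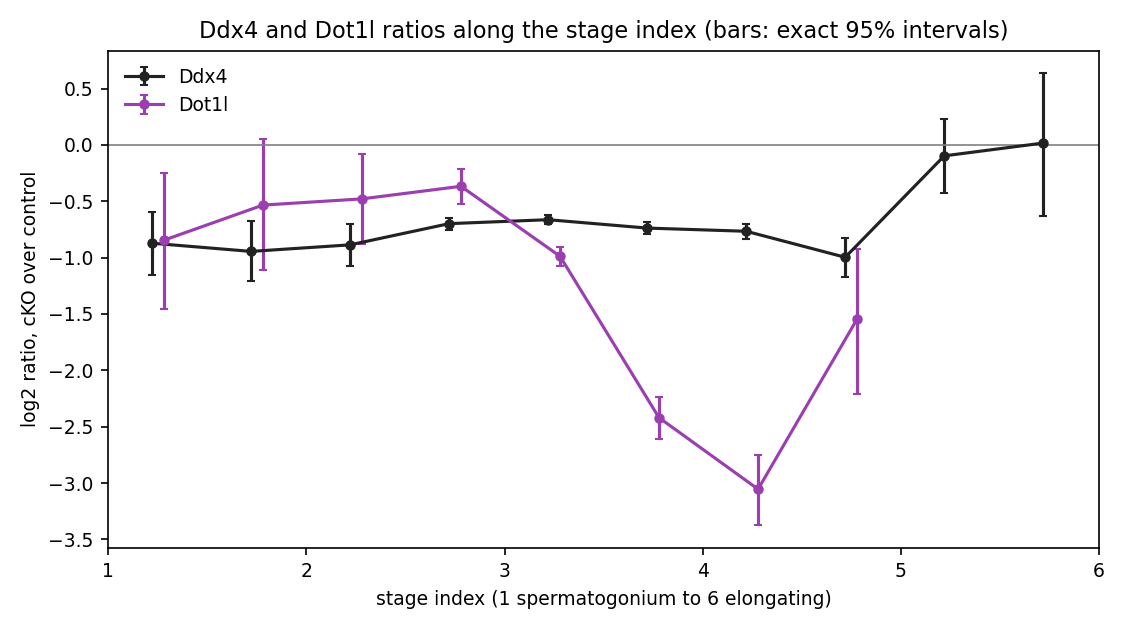
Log2 ratio of CPM, cKO over control, of Ddx4 (black) and Dot1l (purple) against the stage index, with 95% intervals as bars, for ranges with 20 or more UMIs of the gene in each library. Ddx4 stays between −0.66 and −0.997 up to index 5, while Dot1l runs from −0.37 to −3.05.

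Other genes of germ granules and the piRNA pathway were over 1.5-fold lower in the cKO library about as rarely as all measured genes. Of 30 such genes, 27, 27, 28, 28 and 24 had enough UMIs to be measured in the 5 germ cell classes from spermatogonium-like to elongating spermatid-like. Over 1.5-fold lower were 1, 0, 0, 0 and 0 of them, beside 5.24%, 2.81%, 4.82%, 6.77% and 4.88% of all measured genes. These shares come to about 1 or 2 genes in a list of this size, so the counts are near the background. Over 1.5-fold higher were 1, 2, 1, 6 and 12 members. Among all measured genes 11.2%, 11.1%, 14.3%, 18.1% and 33.9% were over 1.5-fold higher. The medians of the list were −0.08, −0.05, 0.13, 0.14 and 0.60, beside −0.02, 0.04, 0.07, 0.10 and 0.36 over all measured genes. Ratios below 0 of any size were found for 14, 18, 7, 9 and 3 members. The member lower in spermatogonium-like cells was Nanos3, an RNA-binding protein of early germ cells, at 16.6 and 8.68 CPM, a ratio of −0.94 (−1.77 to −0.12) on 29 and 25 UMIs. The member higher there was the Tudor gene Tdrd6, on 16 and 77 UMIs. Both were named after their values were seen in that class.

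Abundant members differed less than Ddx4 in the class where it peaked. In early spermatocyte-like cells Piwil1, a PIWI protein of pachytene piRNAs, was at 695 and 606 CPM, a ratio of −0.20 (−0.24 to −0.15), and Stk31 at 638 and 616 CPM, both named after their values were seen. In early spermatocyte-like cells Gtsf1, a PIWI cofactor, was at 577 and 572 CPM, and Mael, a piRNA pathway protein, at 598 and 579 CPM. Rnf17, a Tudor protein of germ granules, was at 600 and 578 CPM there, and Dazl, an RNA-binding translation regulator of germ cells, at 817 and 844 CPM. Ddx25, a DEAD-box helicase of the chromatoid body, was at 382 and 368 CPM in round spermatid-like cells, a ratio of −0.05 (−0.09 to −0.02), beside −0.78 for Ddx4. The members with the largest ratios in round spermatid-like cells were higher in the cKO library. Henmt1, which methylates the ends of piRNAs, was at 9.81 and 18.9 CPM, a ratio of 0.95 (0.76 to 1.14). Nanos3 had 0.81, Mybl1, a transcription factor of pachytene piRNA genes, 0.77, Dazl 0.74 and the arginine methyltransferase gene Prmt5 0.68, the last on 38 and 49 UMIs. All 5 were under 14 CPM in the control round spermatid-like cells.

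Of 26 other DEAD-box helicase genes, 26, 26, 25, 26 and 22 were measured in the 5 classes in the same order. The same gene, D1Pas1, a testis-expressed relative of Ddx3x, was the 1 member over 1.5-fold lower in each class. In early spermatocyte-like cells D1Pas1 was at 93.4 and 49.5 CPM, a ratio of −0.92 (−1.05 to −0.78). Its ratio was −0.68, −0.84 and −0.91 in spermatogonium-like, mid to late spermatocyte-like and round spermatid-like cells. Unlike Ddx4 it was also lower in elongating spermatid-like cells, at 19.5 and 13.0 CPM, a ratio of −0.59 (−0.79 to −0.40). Over 1.5-fold higher were 1, 2, 2, 4 and 9 members, and the list's medians were −0.03, 0.00, 0.10, 0.17 and 0.53. Against the shares of all genes given for the germ granule list, the higher counts are near or below the background and the single lower gene is near it.
Ddx43, another helicase of germ cells, was higher in the cKO library, with 51.0 and 113 CPM in early spermatocyte-like cells, a ratio of 1.14 (interval up to 1.28). In round spermatid-like cells it had 2.51 on 21 and 96 UMIs. Ddx20 had 0.64, Ddx47 0.62 and the Y-linked Ddx3y 0.60 there. The abundant Ddx5 was at 704 and 813 CPM in early spermatocyte-like cells, a ratio of 0.21, and Ddx24 at 264 and 262 CPM. Of 10 genes expressed by germ cells of several stages, 9 were measured in each class. Over 1.5-fold lower were 0 of 9 in each of the 5, where the shares of all genes come to under 1 of 9. Over 1.5-fold higher were 0, 0, 2, 2 and 6 of 9, beside 11.2%, 11.1%, 14.3%, 18.1% and 33.9% of all measured genes. The medians of these genes were 0.18, −0.05, 0.12, 0.20 and 0.79, beside −0.02, 0.04, 0.07, 0.10 and 0.36 over all measured genes.

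**Figure D5:**
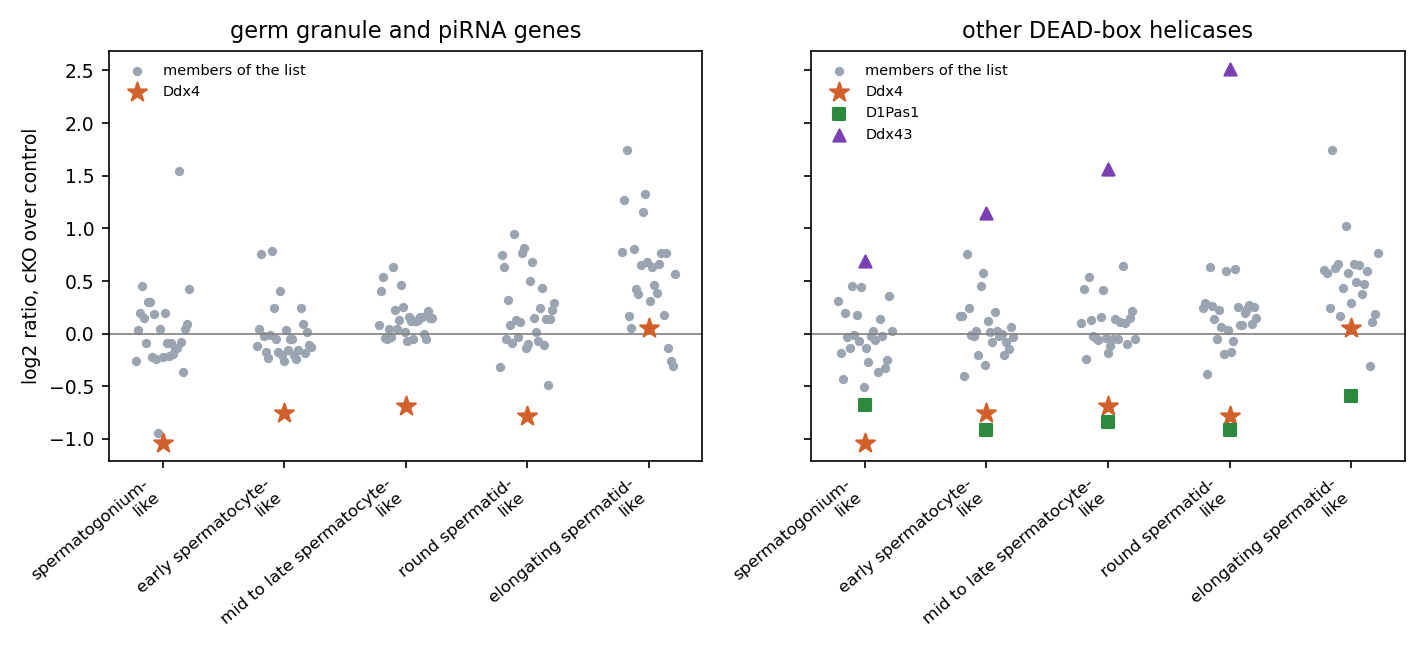
Log2 ratio of CPM, cKO over control, of each measured germ granule and piRNA gene (left) and each other DEAD-box helicase gene (right) as grey points by germ cell class, with Ddx4 as an orange star. Ddx4 lies at or below the lowest grey points in the first 4 classes, D1Pas1 (green square) lies near it, and Ddx43 (purple triangle, not measured in the elongating class) lies above the other helicases where it is plotted.

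The 10 genes whose control levels followed that of Ddx4 most closely were Ik, Ints13, Tusc3, Hdac1, Hsp90aa1, Hspa9, Strap, Mcrs1, Naa25 and Usp8. Their Pearson r with Ddx4, of log2(CPM + 1) over 13 germ cell clusters of the control library, was 0.987 to 0.994 among 12517 genes. The clusters share the library, so this is a description of shape. With a pseudocount of 10 in place of 1, 8 of the 10 were again among the closest, and over the 14 germ cell clusters of the cKO library 3 of 10 were. None of the 10 (0 of 10) was over 1.5-fold lower in the cKO library in any of the 4 classes up to round spermatid-like cells. The shares of all genes lower there, 2.81% to 6.77%, come to under 1 of 10, so this count is near the background. Their median ratios there were 0.14, 0.03, −0.04 and −0.02. Hsp90aa1, an abundant chaperone gene, was at 6591 and 5740 CPM in early spermatocyte-like cells, a ratio of −0.20, and the histone deacetylase gene Hdac1 at 202 and 206 CPM. Strap was an exception in the other direction, at 129 and 298 CPM there, a ratio of 1.21. Dot1l had an r of 0.961 with Ddx4, over clusters that include elongating spermatid-like ones, where both genes were low. Before those the levels did not always move together. From cluster 22 to cluster 15 of the control, Ddx4 rose from 286 to 668 CPM while Dot1l went from 98.0 to 54.6 CPM. From cluster 13 to cluster 17 both rose.

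Of the genes beside Ddx4 on chromosome 13, Slc38a9, an amino acid transporter gene of lysosomes, starts 8275 bases from its 5′ end on the other strand. Slc38a9 was at 109 and 104 CPM in early spermatocyte-like cells, a ratio of −0.06 (−0.17 to 0.05), and at 73.2 and 58.6 CPM in round spermatid-like cells, a ratio of −0.32 (−0.41 to −0.24). Il31ra, a cytokine receptor gene 3972 bases beyond the 3′ end of Ddx4 and on the same strand, was read mainly in mid to late spermatocyte-like cells. It was at 12.9 and 8.16 CPM there, a ratio of −0.66 (−0.86 to −0.47), but at 1.89 and 2.601 CPM in round spermatid-like cells, a ratio of 0.46 with an upper bound of 0.93 and a lower one just under 0. In early spermatocyte-like cells Il31ra had a ratio of −1.02 (−1.96 to −0.10) on 27 and 18 UMIs. Spermatogonium-like cells held only 5 and 9 of its UMIs. Neither neighbour was lower in each class in which Ddx4 was, which for Il31ra rests on low counts.

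Few genes were lower throughout, as Ddx4 was. Of 8294 genes measured in each of the 4 germ cell classes before the elongating one, 28 (0.338%), Ddx4 among them, were over 1.5-fold lower in all 4, and 205 (2.47%) were over 1.5-fold higher in all 4. This comparison was chosen after the values of Ddx4 were seen. Of the 27 others, 25 were also over 1.5-fold lower in Sertoli-like cells, beside 4.64% of all genes measured there. In elongating spermatid-like cells 22 were, beside 4.88% of all genes. Some of the 27, such as Prm1, are germ cell genes. Their UMIs in Sertoli-like barcodes may be free RNA, so their ratios there are not independent of those in germ cells. The 27 included D1Pas1, the ribosomal protein genes Rpl35 and Rpl36 and the mitochondrial genes mt-Atp8 and mt-Nd4l, named after their values were seen. Rpl35 had ratios of −1.37 to −1.40 in the 4 classes, −1.33 in Sertoli-like and −1.35 in elongating spermatid-like cells. Hnrnpa3 and Rapsn were the 2 with a smaller difference in Sertoli-like cells, at −0.30 and −0.49. The Ddx4 ratio in Sertoli-like cells, −0.73, is not independent of that in germ cells. By the estimate above, free RNA of the library could bring more Ddx4 into those barcodes than was measured. What part a difference common to all barcodes of a library has in the Ddx4 ratio was not tested.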

How the data were processed

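The authors deposited 1 table of UMI counts per library, which per the file headers came from Cell Ranger 7.0.0, with mm10 and Seurat 4.1.0 named in the submitters' processing notes. Kits and libraries followed the 10x Genomics 3′ protocol, per the labels. The lowest barcode held 500 UMIs in both tables. Barcodes under 500 UMIs or 300 genes, or above 10% mitochondrial UMIs, were dropped. Doublets were scored against simulated doublets (2 per cell) and cells above the 75th percentile of the simulated scores were removed, 3.13% of control and 3.44% of cKO cells. Of the simulated doublets 24.4% and 24.2% lay above the cut-off, a share that the chosen percentile sets. Most simulated doublets would thus stay, and how many real ones stayed was not measured.

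Counts scaled to 10000 UMIs per cell gave 2000 variable genes (without Ddx4, Dot1l, the transition proteins and protamines), 30 principal components, 20 neighbours and Leiden clusters at resolution 1.0, without batch integration (scikit-learn 1.9.0, leidenalg 0.10.2). A cluster took the name whose markers were over 1.5 times the other cells in 3 or more genes and in no fewer members than it missed, with a median fold of 1.5 or more over the list and no other type with more markers among the 10 leading genes. A cluster whose median UMI count was under 1/3 of that name's cells was held apart as low RNA, and an erythroid name needed 10% hemoglobin UMIs. The naming thresholds and the doublet threshold were set after the clusters and scores were seen, and the classes may differ from the study's own.

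UMIs were summed per class and library. CPM carry exact Poisson intervals, shares of cells Clopper-Pearson intervals, and log2 ratios exact conditional intervals (SciPy 1.17.1), with no test, since cells of 1 library are not replicates. A gene was measured in a class with 50 or more UMIs over both libraries, and 1.5-fold was a size rule with no test. The interval method was run on simulated Poisson counts, the model it assumes, and 95% of intervals held the set value. The simulation had no variation between cells or libraries, so it cannot tell how the intervals behave under such variation. Named list members were the 5 largest absolute ratios in round spermatid-like cells and the 5 highest control levels, of which the text gives a part. The genes followed and the lists were chosen with earlier results of these data known. Position and transcripts came from GENCODE vM21 and the promoter from RefSeq. Alternatives covered scaling, filters, doublets, clustering, class rules and free RNA.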

Additional observations from a re-analysis of the deposited data

How the results depend on the processing

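The Ddx4 log2 ratio was below 0 in each of the 4 germ cell classes before the elongating one under every alternative run but 1. Filtering cells at 5% mitochondrial UMIs before clustering turned the spermatogonium-like value to 0.14, because the cluster so named was another one with 13 and 17 Ddx4 UMIs; it gave no Dot1l value there. An alternative chosen after seeing the data, with the classes kept and only cells of at most 5% mitochondrial UMIs, gave −1.13 for Ddx4 and −1.24 for Dot1l. Classing each cell by its highest marker score gave Ddx4 −0.61 in spermatogonium-like, −0.81 in early spermatocyte-like, −0.72 in round and −0.29 in elongating spermatid-like cells; it gave Dot1l −1.09 in mid to late spermatocyte-like cells. Taking off the median ratio of all genes gave Ddx4 −0.76 in mid to late spermatocyte-like, −0.88 in round and −0.30 in elongating spermatid-like cells. Means over single cells gave Ddx4 −0.83 and Dot1l −0.34 in early spermatocyte-like cells and Dot1l −1.52 in mid to late spermatocyte-like cells. Centring genes within each library gave Dot1l −0.44 in early and −1.38 in mid to late spermatocyte-like cells. For that last class Dot1l was −1.14 at Leiden resolution 0.5, −1.60 at 2.0, and −1.36 with stage index ranges matched within the class, the last chosen after seeing the data. The causes of these shifts were not tested. Counting all results, 130 alternative values stayed within the limits set for them, 25 moved further, and 1, the spermatogonium-like value of 0.14, left a called direction. Values near 0 also crossed it: Ddx4 in elongating spermatid-like cells was below 0 in 4 of 12 alternatives, and Dot1l in early spermatocyte-like cells reached 0.05 with cells of at most 5% mitochondrial UMIs. Leaving out a replicate could not be done with 1 library per group. No paired analysis was possible because each genotype has 1 library. Depth limits the elongating spermatid-like and the smaller somatic classes, where Ddx4 and Dot1l UMIs are few.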
